A study of Mus musculus with 2 samples.

Results

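Lhx2, Emx1, Emx2, Pax6, Otx1, Otx2, Nr2f1, Nr2f2 and Sp8 encode transcription factors that pattern the embryonic cortex and set the identity of its areas. These 9 genes were chosen by name, with earlier results of these data known but with no measured value in the rule, and were found in the deposited tables by their gene identifiers among 42442 mouse genes with a symbol. Levels were measured by total RNA sequencing of whole mouse forebrain at embryonic day 13.5 in 2 libraries that form 1 group, so no condition is compared here. Both libraries came from healthy embryos of the B6NCrl strain, with males and females pooled and no mutation or treatment named, and each was made from 10 ng of RNA longer than 200 bases. The labels call them biological replicates, and both carry the same donor code. The whole forebrain holds cortex, basal forebrain and, at its caudal end, diencephalon, so a level is an average over regions, and fewer cells of a type and less RNA per cell cannot be told apart.

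Cortical areas are laid out in the dividing cells of the ventricular zone before neurons settle. Secreted signals from the rostral midline, the cortical hem and the lateral edge of the cortex set up opposing gradients of transcription factors, and the ratio between factors at each point biases the area that forms there. Emx2 and Nr2f1 are known to be high caudally, whereas Pax6 and Sp8 are known to be high rostrally, and Lhx2 is known to be required for cells to take a cortical fate rather than that of the hem. None of these gradients can be seen in RNA from a whole forebrain.

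The libraries held 35378462 estimated counts in replicate 1 and 36793284 in replicate 2. Markers for midbrain and hindbrain were nearly absent. Of 15, 2 reached 1 TPM (a level corrected for gene length and for the size of the library) in both libraries, beside 59.0% of protein-coding genes. These were Gbx2, which is also a thalamic gene, and Lmx1a. The list summed to 26.03 in replicate 1 and 27.72 TPM in replicate 2. Eye markers summed to 46.15 and 54.4 TPM, mostly from Rlbp1, with Cryaa and Rpe65 listed at 0, and markers of the olfactory epithelium summed to 94.84 and 92.19 TPM, mostly from Dlx5, a gene also used in the basal forebrain, with Foxi3 listed at 0. Markers of choroid plexus, diencephalon, meninges, blood vessels, Cajal-Retzius cells and caudal interneurons were all present, and their sums in each library are given below.

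All 9 genes were expressed in both libraries, at levels that spanned 9.78-fold. Every gene passed 1 TPM in both libraries, as did 59.0% of 21460 protein-coding genes of the nuclear genome, and every gene also passed 10 TPM, as did 38.9%. The median of the mean levels of the 9 genes was 64.4 TPM. Over all protein-coding genes it was 3.91 TPM, and over those that passed 1 TPM in both libraries 20.1 TPM. Taken within a library, the median of the 9 genes was 65.26 in replicate 1 and 52.9 TPM in replicate 2 (SD 8.74, n = 2). Together the 9 genes took 538.49 in replicate 1 and 471.41 TPM in replicate 2. Lhx2 was the highest and ranked 1184 among the protein-coding genes, and Sp8 was the lowest and ranked 7619.

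The order of mean levels was Lhx2, Nr2f1, Pax6, Emx1, Nr2f2, Emx2, Otx2, Otx1 and Sp8. Neighbours in this order were not all apart. The ranges over the libraries overlapped between Nr2f1 and Pax6, between Emx1 and Nr2f2, between Emx2 and Otx2 and between Otx2 and Otx1. They did not overlap at the other 4 steps, of which the widest was from Nr2f2 to Emx2, at 2.31-fold between the means. Within each library, Emx2 was above Otx2 (by 1.34 TPM in replicate 1 and 4.72 TPM in replicate 2) and Otx2 above Otx1 (by 9.8 and 3.36 TPM), whereas Nr2f1 against Pax6 and Emx1 against Nr2f2 changed order between the libraries. An exact two-sided sign test over 2 libraries cannot give a p below 0.5, so the order is described and not tested.

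**Figure D1:**
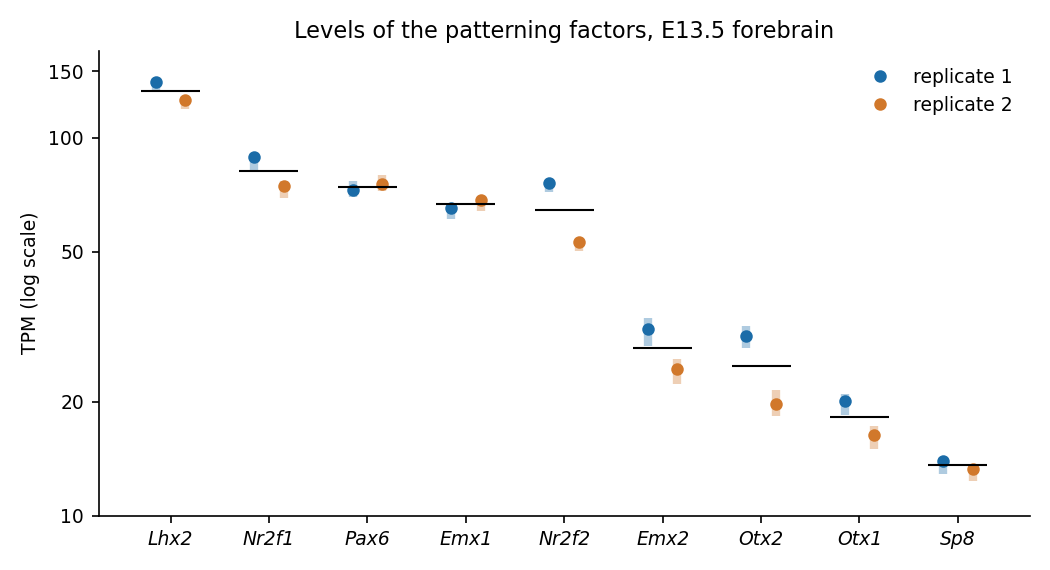
TPM of each gene (log scale) in replicate 1 (blue) and replicate 2 (orange), with the mean as a black line and the deposited interval of TPM, whose level is not stated, as a pale bar. Lhx2 sits highest at 140.52 and 125.98 TPM and Sp8 lowest at 13.92 and 13.33 TPM, and the libraries are farthest apart for Otx2 and Nr2f2.

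Lhx2, a LIM-homeodomain factor that acts as a selector of cortical identity, had 140.52 in replicate 1 and 125.98 TPM in replicate 2, from 6219 and 6514 estimated counts. Its mean of 133 ± 10.3 TPM (SD, n = 2) was 1.63 times that of Nr2f1, the next gene, and the gap was 51.81 in replicate 1 and 51.49 TPM in replicate 2. The gene lies at chr2:38339281-38369733 on the plus strand of mm10. Most of its reads belonged to Lhx2-201, which holds the whole homeobox, the stretch that encodes the DNA-binding homeodomain: 84.5% of the gene's counts in replicate 1 and 87.6% in replicate 2. Corrected for length, the same transcript had 61.4% and 68.2% of the gene's TPM, while Lhx2-202, a short model with an incomplete end, took 25.2% and 20.7% of TPM with 7.02% and 5.39% of counts.

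Pax6 carries a paired domain and a homeodomain, and it drives the proliferation and the neuronal output of cortical progenitors. It had 72.79 in replicate 1 and 75.65 TPM in replicate 2 (74.2 ± 2.02 TPM, SD, n = 2; 3778 and 4326 estimated counts), and its spread in TPM was the smallest but for that of Sp8. The gene lies at chr2:105668900-105697364 on the plus strand. Its short alternative exon 5a inserts 14 codons into the paired box and is known to change which DNA sequences the paired domain binds. The exon has 42 bases, at chr2:105684751-105684792, between exon 5 (131 bases) and exon 6 (216 bases). Its sequence is shown because the 2 forms of Pax6 are told apart by it alone. It is given in capitals with 15 bases of each neighbouring exon, above the junction that forms when it is skipped, both from GENCODE M21 transcripts:

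Pax6 exon 5a included: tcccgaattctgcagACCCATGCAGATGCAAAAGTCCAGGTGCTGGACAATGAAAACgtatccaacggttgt

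Pax6 exon 5a skipped: tcccgaattctgcaggtatccaacggttgt

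Transcripts with exon 5a made up a minor share of Pax6 that was close in both libraries. The 5 coding transcripts that include it summed to 10.43 in replicate 1 and 11.25 TPM in replicate 2, and the 4 coding ones that join exon 5 directly to exon 6 summed to 36.3 and 38.42 TPM. The included share was 22.3% in replicate 1 and 22.6% in replicate 2 (22.5 ± 0.233%, SD, n = 2) of these coding transcripts. Estimated counts gave 21.7% and posterior mean TPM 23.2%, differences larger than the spread between the libraries but under 1 percentage point. Of the whole gene's TPM, these transcripts with the exon made up 14.3% and 14.9%. With noncoding transcripts counted too (10 that cover the exon, among them Pax6-209, which keeps the intron before it, and 7 that join exon 5 to exon 6), the included share was 28.9% in each library, a count added after the coding shares were seen.

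The main skipped transcript was Pax6-202, with 28.3% of the gene's TPM in replicate 1 and 29.7% in replicate 2, followed by Pax6-207 with 14.5% and 15.9%. Most of the included form was Pax6-225, with 13.1% and 13.3%. The other included transcripts were Pax6-205, with 1.13% and 1.47%, Pax6-224, with 0.0962% and 0.132%, and Pax6-201 and Pax6-206, both listed at 0. Among other coding transcripts, Pax6-203 had 7.03% and 5.21%, Pax6-214, an incomplete model, 6.02% and 7.43%, and Pax6-204 was listed at 0. Pax6-208 had 4.27% and 4.53%: its coding region of 762 bases lacks exons 5, 5a and 6 and so most of the paired box, while it holds the whole homeobox. The leading transcript took a smaller share of Pax6 than of any other of the 9 genes. Pax6 had 74.5% and 77.6% of TPM in coding transcripts, 11.4% and 11.9% in retained-intron transcripts, and the remainder in other noncoding ones.

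Pax6 also had the most annotated starts, and starts within 100 bases were grouped. The leading group, that of Pax6-202, had 32.5% ± 0.0938 of the gene's TPM (SD, n = 2), the most upstream group, that of Pax6-207, had 21.9% ± 1.94, and the group that holds Pax6-225 had 14.5% ± 0.357. These come from annotated transcript ends and not from a measurement of start sites.

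Emx1 and Emx2 are related homeodomain factors. Emx1 marks the progenitors and glutamatergic neurons of the cortex, and Emx2 favours caudal and medial areas and is needed for growth of the hippocampus. Emx1 (chr6:85187438-85204462, plus strand) had 65.26 in replicate 1 and 68.48 TPM in replicate 2, from 2009 and 2296 estimated counts. Emx2 (chr19:59458372-59465357, plus strand) had 31.26 and 24.46 TPM, from 1157.88 and 1075.38 estimated counts. Emx1 was the higher in both libraries, by 2.09-fold in replicate 1 and 2.80-fold in replicate 2, a log2 ratio of 1.27 ± 0.30 (SD, n = 2). The level of Emx1 varied little, at 66.9 ± 2.28 TPM, and that of Emx2 more, at 27.9 ± 4.81 TPM.

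The homeoboxes of the pair differ at 38 of 180 bases (78.9% identity), with no identical run longer than 14 bases, so reads over them can be assigned to one gene or the other. They are printed to show how far apart the paralogs are where their function is most alike. Capitals mark the bases that differ, and both come from GENCODE M21 transcripts across a spliced intron, at chr6:85194091-85203956 for Emx1 and chr19:59461715-59463927 for Emx2:

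Emx1: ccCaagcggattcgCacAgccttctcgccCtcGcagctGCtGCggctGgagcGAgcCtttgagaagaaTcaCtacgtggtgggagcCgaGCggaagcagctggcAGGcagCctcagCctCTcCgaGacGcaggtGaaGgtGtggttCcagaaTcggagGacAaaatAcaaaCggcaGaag

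Emx2: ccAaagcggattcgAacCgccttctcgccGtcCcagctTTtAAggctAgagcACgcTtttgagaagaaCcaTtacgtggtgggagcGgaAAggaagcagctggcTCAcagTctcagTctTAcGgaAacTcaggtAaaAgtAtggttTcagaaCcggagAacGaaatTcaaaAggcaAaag

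The size of the Emx1 excess depended on which transcripts were counted. Emx1-201, with the whole homeobox, had 74.5% and 74.0% of Emx1 TPM, and the remaining 25.5% and 26.0% lay in Emx1-202, a retained-intron transcript. For Emx2, the transcript with the whole homeobox, Emx2-201, had only 23.7% and 28.5% of TPM. Most Emx2 TPM, 65.0% and 67.3%, was assigned to Emx2-202, a model whose start is marked incomplete in GENCODE and which holds 48 of the 180 homeobox bases, and 11.3% and 4.17% lay in the short noncoding Emx2-203. In estimated counts, Emx2-201 had 40.1% and 44.3% of the gene. Between transcripts that encode the whole homeobox, Emx1 had 48.64 and 50.7 TPM and Emx2 had 7.41 and 6.98 TPM, a 6.56-fold and a 7.26-fold excess of Emx1. In estimated counts not divided by length, the excess of Emx1 was 1.74-fold and 2.14-fold.

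Otx1 and Otx2 are homeodomain factors related to Drosophila orthodenticle. Otx2 is needed early for forebrain and midbrain to form and is later kept in the choroid plexus, the dorsal midline and the diencephalon, while Otx1 acts in cortical progenitors and deep-layer neurons. Otx1 (chr11:21994764-22002897, minus strand) had 20.12 in replicate 1 and 16.38 TPM in replicate 2, from 1258 and 1106 estimated counts. Otx2 (chr14:48657677-48673819, minus strand) had 29.92 and 19.74 TPM, from 1216 and 883 estimated counts. Otx1 was the lower of the pair in both libraries, at a log2 ratio to Otx2 of -0.57 and -0.27 (-0.42 ± 0.21, SD, n = 2), although the ranges of the genes overlapped across libraries. Before division by length the order turned: Otx1 had slightly more estimated counts, at a mean log2 ratio of 0.19.

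The homeoboxes of Otx1 and Otx2 differ at 36 of 180 bases (80.0% identity), with a longest identical run of 18 bases. Shown for the same reason and in the same way, they lie at chr11:21997017-21998507 and chr14:48659285-48661436, each across a spliced intron:

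Otx1: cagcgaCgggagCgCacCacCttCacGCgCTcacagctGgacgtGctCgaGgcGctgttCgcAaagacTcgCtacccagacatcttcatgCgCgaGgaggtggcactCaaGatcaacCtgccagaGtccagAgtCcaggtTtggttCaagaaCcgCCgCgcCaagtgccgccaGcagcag

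Otx2: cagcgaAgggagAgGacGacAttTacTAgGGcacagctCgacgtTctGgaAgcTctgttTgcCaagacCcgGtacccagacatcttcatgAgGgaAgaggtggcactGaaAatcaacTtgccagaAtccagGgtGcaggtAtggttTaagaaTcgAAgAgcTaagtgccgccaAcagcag

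Both genes were expressed mostly as coding transcripts with the homeobox. Otx1-201 had 86.9% and 83.4% of Otx1 TPM, and transcripts of Otx1 with the homeobox in their coding region summed to 18.4 and 14.8 TPM. For Otx2 the corresponding sums were 27.39 and 18.28 TPM, so this measure left the pair ratio almost where it was, at a mean log2 ratio of -0.44.

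Most Otx2 TPM was assigned to a transcript with a downstream annotated start, although no start site was measured. Otx2-201, which begins there and whose deposited length differs from that in GENCODE M21, had 62.2% of the gene's TPM in replicate 1 and 60.7% in replicate 2. The upstream start group, that of Otx2-202, had 29.3% ± 0.331 (SD, n = 2), and Otx2-202 itself had 21.7% and 25.3%. Both shares differed little between the libraries, although the gene's total level differed by 1.52-fold. The promoter windows of both starts, from 250 bases before to 50 bases after the RefSeq start on GRCm38.p6, are printed because both starts belong to a single gene. In capitals are matches on either strand to TAATTA, a core bound by many homeodomains, and to TAATCC, written GGATTA on the other strand, a core bound by Otx-type homeodomains. The windows are chr14:48665060-48665359 for the downstream start and chr14:48667459-48667758 for the upstream one, both on the minus strand:

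Otx2 downstream start: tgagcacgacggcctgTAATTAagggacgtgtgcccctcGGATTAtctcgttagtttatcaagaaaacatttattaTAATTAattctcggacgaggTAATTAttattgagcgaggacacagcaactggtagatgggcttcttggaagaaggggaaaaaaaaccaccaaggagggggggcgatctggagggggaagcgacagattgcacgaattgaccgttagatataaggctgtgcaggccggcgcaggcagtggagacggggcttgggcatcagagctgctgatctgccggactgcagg

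Otx2 upstream start: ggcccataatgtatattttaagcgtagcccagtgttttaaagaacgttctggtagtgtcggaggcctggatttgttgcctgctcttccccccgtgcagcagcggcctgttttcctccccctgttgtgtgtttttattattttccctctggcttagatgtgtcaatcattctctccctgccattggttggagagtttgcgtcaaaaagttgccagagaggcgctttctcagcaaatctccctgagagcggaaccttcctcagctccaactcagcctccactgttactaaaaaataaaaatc

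The downstream window held 3 matches to TAATTA and 1 to TAATCC, and the upstream window held neither. A further RefSeq window upstream, chr14:48667595-48667894 at the start of Otx2-208, held 1 match to TAATTA and none to TAATCC. Over 32817 RefSeq promoter windows of the same length, 5.30% held TAATTA and 7.06% held TAATCC. A match describes the letters of the window and is not a measured binding site. Across the 16 windows found for 8 of the 9 genes (all but Otx1), the median GC content was 53.3%, beside 52.7% over all windows. Matches to TAATTA stood in 4 of the 16 windows and matches to TAATCC in 3 of them. The motif GGGCGG, the core of the GC box, was present in 5 of the 16 windows and in 35.6% of all windows, and TATAAA was in 2 of the 16 and in 13.6% of all.

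Nr2f1 and Nr2f2 are the orphan nuclear receptors COUP-TFI and COUP-TFII. Nr2f1 is graded from high caudally to low rostrally and promotes sensory areas, and Nr2f2 is known for caudal and ventral cortex and for the interneurons of the caudal ganglionic eminence. Nr2f1 (chr13:78188973-78199757, minus strand) had 88.71 in replicate 1 and 74.49 TPM in replicate 2 (81.6 ± 10.1 TPM), from 4300.47 and 4106.66 estimated counts. Nr2f2 (chr7:70351944-70366735, minus strand) had 75.99 and 52.9 TPM (64.4 ± 16.3 TPM, the widest spread of the 9 genes in TPM), from 6166 and 4747 estimated counts. Relative to the mean, the spread of Otx2 (29.0%) was wider than that of Nr2f2 (25.3%). The ranges of Nr2f1 and Nr2f2 just overlapped across libraries. Within each library Nr2f1 was the higher in TPM, at a log2 ratio of 0.22 in replicate 1 and 0.49 in replicate 2 (0.36 ± 0.19, SD, n = 2).

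This order did not hold under the other measures. In estimated counts Nr2f1 was the lower in both libraries, at a mean log2 ratio of -0.36. Counted over transcripts that encode the pair of zinc fingers, the DNA-binding part of the protein, Nr2f1 had 39.88 and 36.75 TPM and Nr2f2 had 61.99 and 44.23 TPM, a mean log2 ratio of -0.45. Nr2f1-201, which encodes the finger pair, had 45.0% and 49.3% of Nr2f1 TPM and 64.1% and 67.4% of its counts. The rest lay mainly in Nr2f1-202 (27.7% and 21.8% of TPM) and Nr2f1-205 (22.7% and 22.6%), coding transcripts that start downstream of the fingers. Nr2f2-201, which encodes the finger pair, had 81.6% and 83.6% of Nr2f2 TPM, and Nr2f2-202, whose coding region of 843 bases lacks it, had the other 18.4% and 16.4%. Which member of the pair was the higher thus depended on how its shorter transcripts were treated.

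The zinc finger stretches are the most alike of the 3 pairs, with 16 of 168 bases different (90.5% identity) and an identical run of 44 bases. No stretch of 100 bases is shared between the pair, whereas some stretches of 50 bases are. They lie in a single exon each, at chr13:78198160-78198327 and chr7:70359928-70360095, and capitals again mark the differing bases:

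Nr2f1: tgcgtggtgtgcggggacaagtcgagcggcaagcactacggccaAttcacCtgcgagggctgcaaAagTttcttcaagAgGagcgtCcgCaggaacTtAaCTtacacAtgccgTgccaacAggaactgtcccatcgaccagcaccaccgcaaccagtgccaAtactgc

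Nr2f2: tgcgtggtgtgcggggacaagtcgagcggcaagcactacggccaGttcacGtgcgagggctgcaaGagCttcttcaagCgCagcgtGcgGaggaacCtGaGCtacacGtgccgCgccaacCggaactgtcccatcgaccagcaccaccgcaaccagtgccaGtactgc

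**Figure D2:**
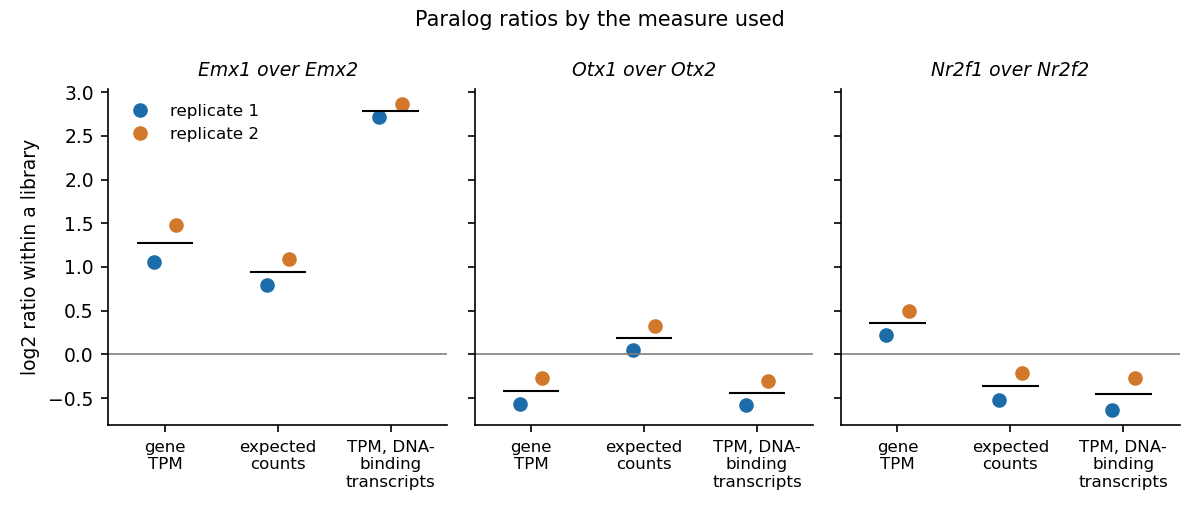
Log2 ratio within each library for Emx1 over Emx2, Otx1 over Otx2 and Nr2f1 over Nr2f2, by gene TPM, by estimated counts and by TPM of the transcripts that encode the whole homeobox or zinc finger pair; points are libraries and lines their mean. Emx1 stays above 0 by each measure, whereas Otx1 over Otx2 is above 0 in counts only and Nr2f1 over Nr2f2 in gene TPM only.

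Sp8, a zinc finger factor of the Sp family that is high in rostromedial progenitors and is linked to Fgf8 in the rostral signalling centre, was the lowest of the 9. It had 13.92 in replicate 1 and 13.33 TPM in replicate 2 (13.6 ± 0.417 TPM, SD, n = 2), from 1356 and 1415 estimated counts, the smallest spread of the set in TPM. Relative to the mean, the spread of Sp8 was 3.06%, above the 2.72% of Pax6. The gene (chr12:118846329-118852576, plus strand) has a single transcript in the tables. Fgf8 itself had 1.23 and 2.05 TPM.

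**Figure D3:**
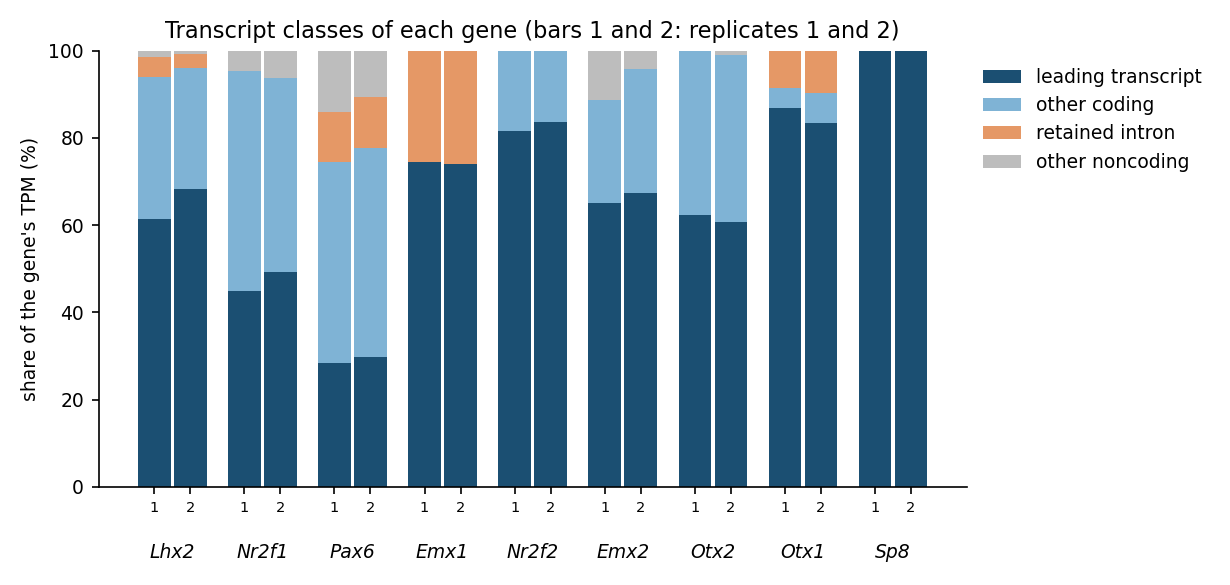
Share of each gene's TPM (%) in its leading transcript, other coding transcripts, retained-intron transcripts and other noncoding transcripts, with replicate 1 left of replicate 2. The leading transcript ranges from all of Sp8 to 28.3% and 29.7% of Pax6, and retained introns are largest for Emx1, at 25.5% and 26.0%.

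The libraries did not hold the 9 genes at equal levels. By TPM, 7 of the 9 were higher in replicate 1, as were 76.1% of the 11953 protein-coding genes with a mean estimated count of at least 100, and the median log2 ratio of replicate 1 over replicate 2 was 0.25 over the 9 genes and 0.11 over all. Relative to the median of all genes, Otx2 stood 0.49 above it on the log2 scale, Nr2f2 0.41, Emx2 0.24, Otx1 0.19, Nr2f1 0.14 and Lhx2 0.05, while Sp8 stood at -0.05, Pax6 at -0.16 and Emx1 at -0.18. Scaled by TMM, which centres the genes of both libraries, the median was 0.07 over the 9 genes and -0.01 over all, 5 of the 9 and 47.7% of all genes were higher in replicate 1, and the signs of Lhx2 and Sp8 turned.

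By 25% or more, 3 genes were higher in replicate 1, namely Otx2, Nr2f2 and Emx2, beside 11.0% of all genes, and none was higher in replicate 2, beside 1.92%. After TMM scaling, Otx2 and Nr2f2 passed, beside 4.17% of all genes, and again none in replicate 2, beside 3.86%. By 1.5-fold or more in TPM, Otx2 alone passed, beside 2.27%. That call was lost under these alternatives: none of the 9 passed with TMM, beside 1.20% of all genes, with DESeq2 size factors, beside 1.20%, or by posterior mean TPM, beside 1.93%. The DESeq2 size factors were 1 in both libraries, so those values are unscaled counts. The ratio of Otx2 exceeded that of 97.9% of all genes and the ratio of Nr2f2 that of 96.7%. The deposited TPM intervals lay apart and higher in replicate 1 for 6 of the 9 (Lhx2, Emx2, Otx1, Otx2, Nr2f1 and Nr2f2), beside 26.5% of all genes, and for none in the other direction, beside 3.86%. The 9 genes had mean counts from 1049.5 (Otx2) to 6366.5 (Lhx2), whereas all genes compared had 100 or more. The width of an interval depends on counts, so these shares are not at like depth. With 1 library on each side, these are differences between libraries and carry no test.

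**Figure D4:**
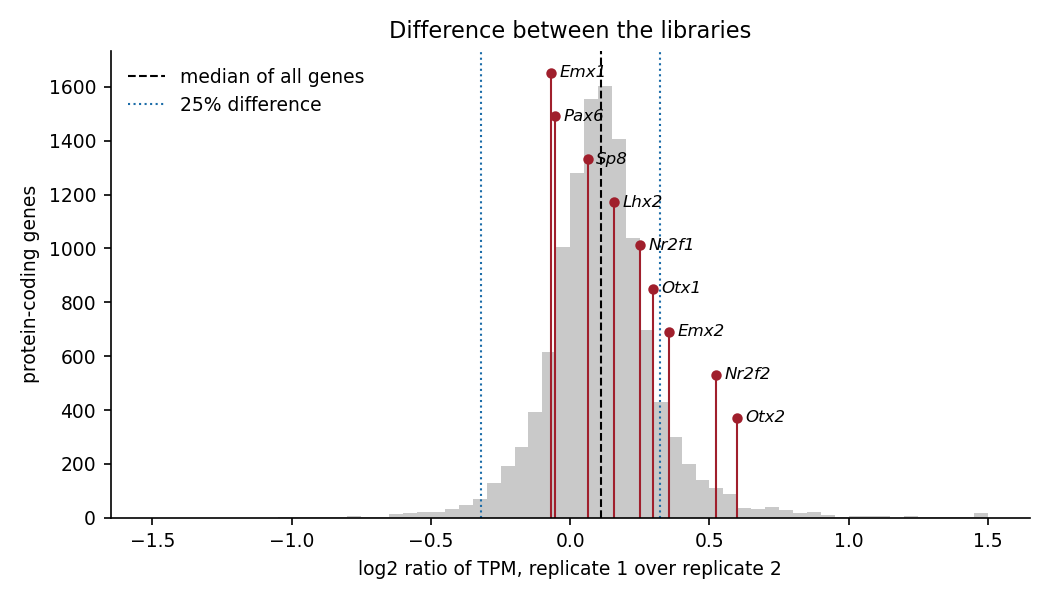
Log2 ratio of TPM, replicate 1 over replicate 2, for 11953 protein-coding genes (grey bars, values beyond 1.5 placed in the end bars) and for the 9 genes (red lines, whose heights carry no meaning). The dashed line is the median of all genes, 0.11, and the dotted lines mark a 25% excess in either library; Emx2, Nr2f2 and Otx2 lie beyond the right one.

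Marker lists of other regions and cell types differed between the libraries in both directions. Over all genes compared, 76.1% were higher in replicate 1. By 25% or more, 11.0% were higher in replicate 1 and 1.92% in replicate 2. Choroid plexus markers, leaving out Otx2, summed to 532.99 in replicate 1 and 289.97 TPM in replicate 2, with Ttr, the thyroxine carrier, at 419.95 and 217.37 TPM. Of the 12 markers, 9 had enough counts to compare, all 9 were higher in replicate 1, 8 were so by 25% or more, and none of the 12 was at 0 in both libraries. Their part in the difference of Otx2, which the choroid plexus expresses, was not tested. For Nr2f2, markers of caudal interneurons summed to 236.87 and 207.84 TPM. Of 6 compared, 5 were higher in replicate 1, 2 by 25% or more. Among them Cck had 32.24 and 7.96 TPM, while Nfix, the highest of the list, went the other way at 105.76 and 118.31 TPM. Vip had 0 and 0.09 TPM. Markers of blood vessels, which also express Nr2f2, summed to 174.3 and 169.88 TPM (7 of 12 higher, 1 by 25% or more). The median log2 ratio was 0.25 for the caudal interneuron list and 0.005 for the vessel list, beside 0.11 over all genes. Markers of Cajal-Retzius cells, early neurons of the cortical edge, summed to 177.25 and 161.78 TPM, with 9 of 10 higher in replicate 1 and 5 by 25% or more. Diencephalic markers moved both ways, with 7 of 15 higher by 25% or more in replicate 1 and 6 in replicate 2 and sums of 256.66 and 315.48 TPM, and meningeal markers summed to 158.41 and 166.48 TPM, with 2 of 9 higher in replicate 1 and 3 higher by 25% or more in replicate 2. The part of these lists in the differences of Nr2f2 and Emx2 was not tested.

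Ligands of the patterning centres were low but present. Of 24, 20 passed 1 TPM in both libraries, beside 59.0% of protein-coding genes, with a median of 3.52 TPM. The highest were Wnt7b at 73.19 in replicate 1 and 64.62 TPM in replicate 2, the Wnt modulator Sfrp2 at 54.02 and 43.47 TPM, Fgf15 at 48.05 and 35.85 TPM and the Wnt enhancer Rspo3 at 36.18 and 28.08 TPM. The lowest was Bmp2 at 0.79 and 0.55 TPM. Of 16 with enough counts, 11 were higher by 25% or more in replicate 1, beside 11.0% of all genes. None was so in replicate 2, beside 1.92%. Their median log2 ratio was 0.58, beside 0.11 over all genes. This was the direction of Otx2, Nr2f2 and Emx2, and also that of 76.1% of all genes. Rspo2 and Rspo3 stand in the choroid plexus list too.

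The other known factors of cortical patterning were all expressed, at a lower median than the 9 genes. All 30 passed 1 TPM in both libraries, 27 passed 5 TPM and 22 passed 10 TPM, beside 59.0%, 46.8% and 38.9% of protein-coding genes, with a median of 22.9 TPM. The helix-loop-helix inhibitor Id2 led at 158.77 in replicate 1 and 199.52 TPM in replicate 2, followed by the zinc finger factor Bcl11a at 134.85 and 130.2 TPM and the LIM-only gene Lmo3 at 89.56 and 72.58 TPM. Etv4, a target of Fgf signalling, was lowest at 2.76 and 2.0 TPM. Of the 29 with enough counts, 4 were higher by 25% or more in replicate 1, beside 11.0% of all genes. Another 4 were so in replicate 2, beside 1.92%. Their median log2 ratio was 0.09, beside 0.11 over all genes.

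Proteins that the 9 factors are known to work with had a median between that of the 9 genes and that of the other patterning factors. Of 22 cofactors, 21 passed 1 TPM in both libraries, beside 59.0% of protein-coding genes, with a median of 45.8 TPM. Ssbp2 and Ssbp3, partners of the LIM-domain binding complex through which Lhx2 acts, had 182.09 and 151.29 TPM and 141.34 and 142.0 TPM in replicates 1 and 2. The chromatin remodeller Smarca4 had 146.2 and 130.53 TPM and the nuclear receptor corepressor Ncor1 had 101.07 and 138.55 TPM. Zfpm1 was lowest at 0.41 and 0.39 TPM.

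Within the gene families, mean TPM placed the 9 genes between 1st and 35th. Of 242 homeobox genes, 86 (35.5%) passed 1 TPM in both libraries, beside 59.0% of protein-coding genes, and 65 had no count in either. Dlx1, an interneuron factor of the basal forebrain, led with 232.69 in replicate 1 and 235.02 TPM in replicate 2. Lhx2 came 2nd, Pax6 6th, Emx1 9th, Emx2 22nd, Otx2 24th and Otx1 35th. The other leading homeobox genes were Cux1, an upper-layer factor, at 119.62 and 113.26 TPM and Meis2 at 107.33 and 106.76 TPM. Among 12 LIM-homeobox genes Lhx2 led, ahead of Isl1 at 66.41 and 76.27 TPM, Lhx9 at 27.19 and 28.48 TPM and Lhx6 at 21.75 and 27.64 TPM, with Lhx4 lowest at 0.05 and 0.03 TPM.

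Pax6 was the only one of 9 Pax genes that passed 1 TPM, beside 59.0% of protein-coding genes. The next, Pax3, had 0.55 and 0.43 TPM. Among 49 nuclear receptors, Nr2f1 came 1st and Nr2f2 3rd in TPM, with the thyroid hormone receptor Thra between them at 79.99 and 76.74 TPM and Nr1h2 4th at 63.77 and 61.4 TPM. The range of Nr2f1 over the libraries overlapped those of Thra and Nr2f2. Within each library Nr2f1 was above Nr2f2 in TPM, whereas Nr2f1 and Thra changed order, so the place of Nr2f1 at the top is not separable from that of Thra. Nr2f2, at 75.99 and 52.9 TPM, also changed order with Nr1h2, so the 3rd place of Nr2f2 is not separable either. Sp8 ranked 10th of 26 Sp and Klf genes, next to its close relative Sp9 (11th, 8.81 and 12.59 TPM), and behind Klf7 at 62.51 and 52.55 TPM, Sp3 at 54.25 and 54.89 TPM, Klf12 at 28.5 and 27.03 TPM and Klf13 at 25.5 and 27.43 TPM. Families and lists share genes, so they are not independent of each other.

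**Figure D5:**
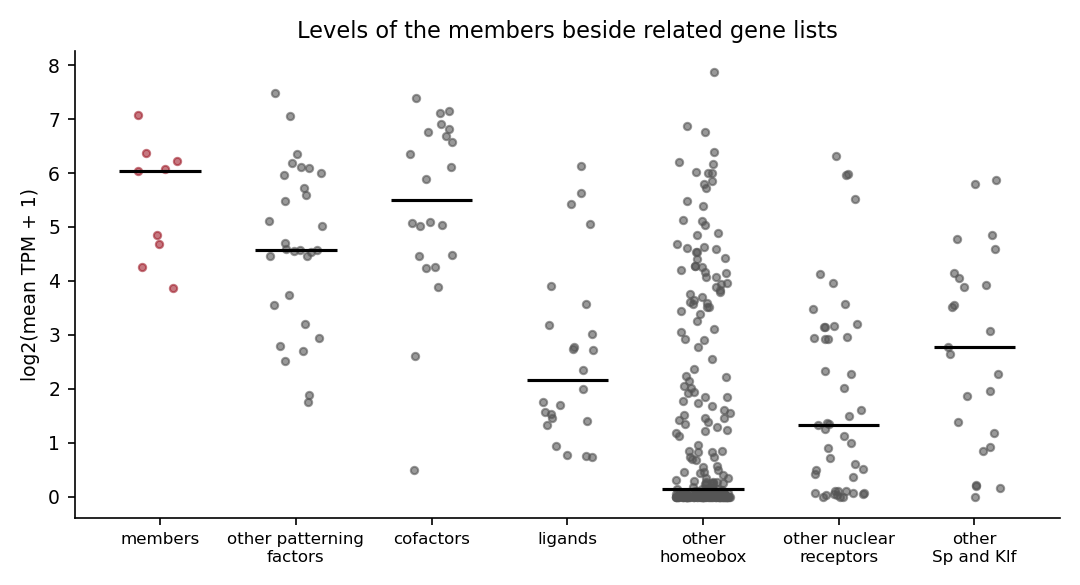
Log2(mean TPM + 1) of the 9 genes (red) and of related lists (grey; the members are left out of the families), with the median of each list as a black line; sideways spread only separates the points. The medians are 64.4 TPM for the 9 genes, 22.9 TPM for 30 other patterning factors, 45.8 TPM for 22 cofactors, 3.52 TPM for 24 ligands and 0.095 TPM for 236 other homeobox genes.

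Several of the 9 genes have transcripts of the other strand beside them. Of 13 annotated genes in the tables that overlap one of the 9 or lie within 10 kb, 11 are on the opposite strand and 7 of these overlap it. Overlap is by gene span in GENCODE M21. Otx2os1, from chr14:48668708, overlaps that span of Otx2 but no measured Otx2 transcript, since these reach chr14:48667644 at most. The highest of the 7 was A830082K12Rik, which overlaps the start of Nr2f1, at 33.3 in replicate 1 and 27.51 TPM in replicate 2, 37.3% of the level of Nr2f1. B130024G19Rik overlaps the start of the minor Nr2f2-202 and not that of Nr2f2-201, the leading transcript. It had 17.61 and 9.47 TPM, and its log2 ratio between the libraries, 0.89, had the same sign as that of Nr2f2, 0.52. Emx2os, a known antisense RNA that overlaps the start of Emx2-201 but not that of Emx2-202, had 4.83 and 3.38 TPM. The antisense or divergent RNAs of Otx2 and Pax6 were low: Otx2os1 had 1.95 and 2.39 TPM, Pax6os1 1.52 and 0.57 TPM and Paupar 0.48 and 0.53 TPM. Beside Lhx2, Gm27197 had 6.16 and 6.51 TPM and Gm13584 0.45 and 0.41 TPM.

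The remaining neighbours do not overlap. Elp4, next to Pax6 and known to hold distant Pax6 enhancers in its introns, had 49.09 and 42.62 TPM, Sfxn5 beside Emx1 17.28 and 18.38 TPM and Ehbp1 beside Otx1 14.85 and 11.84 TPM. Gm28258 beside Nr2f2 had 0.55 and 0.17 TPM, and Gm23469 beside Otx2 was listed at 0. Of the 10 neighbours with at least 10 counts in both libraries, 6 differed between the libraries in the same direction as their gene, where 76.1% of all genes, and 7 of the 9, were higher in replicate 1.

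Antisense partners bear on the counts of 2 of the 9 genes. Emx2 and Emx2os had fractional counts that summed to a whole number in each library, 1687 in replicate 1 and 1479 in replicate 2 (within 0.015), and Nr2f1 and A830082K12Rik likewise summed to 5098 and 4809. The other 7 of the 9 genes had whole counts, as did 72.35% of the 11953 genes compared between the libraries. The reads of Emx2 and Nr2f1 were therefore in part divided with a gene of the opposite strand. Of stretches of 100 bases in Emx2 transcripts, 5.51% also occur in Emx2os as reverse complements, and for Nr2f1 and A830082K12Rik the figure is 0.128%. Nr2f2 shares 11.4% of such stretches with B130024G19Rik, and both had whole counts. By position, B130024G19Rik reaches only Nr2f2-202, which had 7.90% of the counts of Nr2f2 in replicate 1 and 6.93% in replicate 2. No source used here says if strand entered the counting, so reads of a gene and of its antisense partner cannot be told apart with certainty.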

How the data were processed

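RNA of 2 forebrain libraries, 1 group, was measured. Expected counts in the deposited tables are estimates by the authors per gene or transcript, per the file headers. The deposited TPM, FPKM and percent (transcript share) columns are the authors' length-normalised values over all rows, including spike-ins. The deposited interval bounds of TPM (a score of unstated level) were used to see whether libraries overlapped. The build is mm10 with GENCODE M4, while no source used here names the aligner, quantifier or strand handling. Symbols, coordinates and coding regions came from GENCODE M21, which matched 42462 of 43346 mouse genes. Of 57 transcripts of the 9 genes, 54 had the same length there; Nr2f2-201, Sp8-201 and Otx2-201 did not.

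Each level is the mean over both libraries with its SD, and no p-value is given, since an exact two-sided sign test over 2 libraries cannot go below 0.5. Library differences used genes with a mean count of at least 100, beside counts scaled with edgeR 4.0.16 (TMM) and DESeq2 1.42.0 in R 4.3.3. Scaling factors came from rounded counts. Those of DESeq2 were 1 in both libraries, which left the counts as they were. Tables were joined with pandas 2.3.3 in Python 3.11.15. The fold counting was tested on simulated data. Alternatives were other estimates, scalings and thresholds and leaving out a library.

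The members and lists were chosen with earlier results of these data known. The text names all 9 members, the 4 highest and the lowest gene of each expression list and family, genes within 10 kb, transcripts with at least 10% of their gene and coding transcripts of Pax6. Some genes that this rule names are not reported here, and others (Fgf8, Sp9, Vip and markers listed at 0) were picked once their values were known.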

Additional observations from a re-analysis of the deposited data

How the results depend on the processing

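The count of the 9 genes and of the 30 other patterning factors that passed 1 TPM kept within 1.5 times its value under all 4 alternatives tried (a 5 TPM threshold, posterior mean TPM, and without either library), at 9 throughout for the 9 genes and at 27 to 30 for the others. The median level of the 9 genes, 64.4 TPM, was 43.8 TPM as a geometric mean, 41.3 in FPKM, 62.9 by posterior mean TPM, and 52.9 to 65.26 TPM with a library left out. The log2 ratio of Emx1 over Emx2 was 0.94 in estimated counts and 2.79 over transcripts with the whole homeobox, and 1.06 to 1.49 with a library left out. Otx1 over Otx2 reversed to 0.19 in estimated counts, and Nr2f1 over Nr2f2 reversed to -0.36 in estimated counts and to -0.45 over transcripts with the zinc finger pair. Both kinds of change follow from the lengths and transcripts that enter the ratio. With a library left out, these ratios ranged from -0.57 to -0.27 and from 0.22 to 0.49. The median log2 ratio between the libraries over the 9 genes, 0.25, was 0.068 after TMM. It was 0.067 with DESeq2 size factors, which were 1 in both libraries and so left the counts unscaled. By 25% or more there were 3 of the 9 genes, and 1 by 1.5-fold, which TMM, DESeq2 and posterior mean TPM did not keep; over all genes the 1545 became 4353 with no filter, 960 with TMM and 965 with DESeq2. The Pax6 exon 5a share was 23.2% by posterior mean TPM, 21.7% by counts, 28.9% with noncoding transcripts included, and 22.3% to 22.6% with a library left out. Of the values of single genes, levels rescaled over protein-coding genes were higher by more than 1 SD for 7 of 9, the share of the leading transcript moved by more than 1 SD for 8 of 9 in counts, and that of the leading start for 2 of 9 with a 500-base window. Count shares and transcript-restricted ratios were added after seeing the data. No paired analysis was possible because there is only 1 group and so no sample of another group to pair with; the paralog ratios were taken within each library. A count of 0 allows up to 3 counts, and intervals and limits of this kind cover counting error only.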
